A study of Homo sapiens with 12 samples.

Results

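Aminoacyl-tRNA synthetases are the enzymes that join each amino acid to its transfer RNA. The 37 genes described here, of 58051 in the deposited table, were chosen by name: 19 synthetases of the cytosol, 16 of the mitochondrion, and the scaffold proteins AIMP1 and AIMP2. All 37 were found in the table, and all 37 passed the filter on low counts that left 17119 genes. The read counts came from 12 RNA sequencing libraries of THP-1, a line of human monocytic leukaemia cells that take on a macrophage-like state when treated with the phorbol ester PMA. Wild-type cells were compared with cells in which SDC3, the gene of the cell-surface proteoglycan syndecan-3, had been knocked out with CRISPR/Cas9 (SDC3-KO). Both genotypes received 20 ng/ml PMA for 24 h and a change of medium, and each was kept with or without recombinant human interferon-gamma (IFN-γ), with 3 libraries in each of the 4 groups. The dose and duration of IFN-γ and the number of edited lines behind the knockout libraries are not given in the labels, so an effect of the edit and a trait of 1 edited line cannot be told apart. Nothing in the labels says that the libraries of a group were grown as separate cultures, and the p-values therefore reflect the spread between libraries alone, which may be technical.

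The synthetases form a pair of structurally unrelated classes, class I and class II, and most amino acids have 1 nuclear gene for the cytosolic enzyme and another for the mitochondrial enzyme. GARS1 and KARS1 are exceptions, since each encodes both forms. Several cytosolic enzymes sit together with AIMP1 and AIMP2 in the multisynthetase complex, and 1 of them, the glutamyl-prolyl enzyme EPRS1, is also known from IFN-γ-treated monocytic cells as the RNA-binding part of the GAIT complex, which holds back translation of selected messages. WARS1, the tryptophanyl enzyme, is a long-known IFN-γ-induced gene of macrophages, in cells where IFN-γ also turns on enzymes that break tryptophan down. The genes of many cytosolic synthetases are known targets of ATF4, the transcription factor of the amino acid and integrated stress response.

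Library totals ranged from 23616738 to 29426415 counts. SDC3 lay between 196 and 252 CPM (counts scaled to the size of the library) in wild-type libraries without IFN-γ and between 43.9 and 49.9 CPM in knockout libraries, and between 572 and 590 against 237 to 244 CPM with IFN-γ, so its transcript was lower in all 6 knockout libraries but not absent. Of 8 myeloid markers 7 reached 1 CPM, with summed levels of 3577 to 4237 CPM across libraries, while CD68 stayed between 0.072 and 0.72 CPM. Summed levels of the T or NK cell list were 0.573 to 3.44 CPM, of the epithelial list 0.28 to 2.33 CPM with KRT19 at 0, of the B cell list 9.06 to 36.4 CPM and of the fibroblast or endothelial list 9.83 to 31.2 CPM. The B cell list ran lower in the knockout groups (9.06 to 16.5 CPM) than in the wild-type groups (24.9 to 36.4 CPM), with 5 of 5 markers reaching 1 CPM. With IFN-γ the fibroblast or endothelial list (3 of 6 markers reaching 1 CPM) went from 26.2 to 31.2 down to 9.83 to 11.7 CPM in wild type and from 18.1 to 22.2 down to 15.7 to 18.8 CPM in the knockout, where the groups overlapped. The T or NK cell list (1 of 6 reaching 1 CPM) went from 3.20 to 3.44 down to 1.61 to 2.07 CPM in wild type and from 2.35 to 2.92 down to 0.573 to 1.15 CPM in the knockout. The part of these lists in the results was not tested.

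The promoter of WARS1 is shown first because WARS1 stood apart from all other members in the counts. RefSeq (GRCh38.p14) places 2 transcription starts of WARS1 on the minus strand of chromosome 14, 980 bases apart. The 300-base window of the inner start (250 bases before it and 50 after) held 1 gamma-activated site motif (GAS, letters TTCNNNGAA, known from the promoters of IFN-γ-induced genes) and 1 interferon-stimulated response element motif (ISRE, GAAA, any 2 bases and again GAAA, which IRF and ISGF3 factors bind). The window of the outer start held neither. Both matches are printed below on the strand of the gene with the motif in capitals, the GAS match beginning 142 bases and the ISRE match 55 bases before the inner start.

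WARS1 GAS, chr14:100375471-100375499, minus strand: gctcaagtgtTTCTGAGAAtctgggtgat
WARS1 ISRE, chr14:100375383-100375412, minus strand: tttcagaaggGAAACTGAAAgaaagagggg

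Windows were present for 32 of the 37 members. Of the 16 cytosolic genes with a window WARS1 alone had the ISRE letters, and of the 14 mitochondrial genes EARS2 alone had them, against 4.38% of 27305 genes with a window. The GAS letters stood in 3 of the 16 cytosolic genes (CARS1, TARS1 and WARS1) and 2 of the 14 mitochondrial genes (PARS2 and WARS2), against 9.38% of all genes. Both strands were searched for each motif.

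The third motif searched was the C/EBP-ATF response element (CARE, letters TGATGNAA), the composite site that ATF4 is known to bind with C/EBP partners. It stood in 7 of 16 cytosolic genes with a window (43.8%) and in 1 of 14 mitochondrial genes (7.14%, YARS2), against 4.46% of all genes. The 7 cytosolic matches and the mitochondrial 1 are printed below, turned so that the motif reads as spelled, with the motif in capitals and the strand of the reference that is shown.

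AARS1, chr16:70289675-70289704, plus strand: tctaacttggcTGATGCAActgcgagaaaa
CARS1, chr11:3057407-3057436, plus strand: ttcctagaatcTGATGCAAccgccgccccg
GARS1, chr7:30594834-30594863, minus strand: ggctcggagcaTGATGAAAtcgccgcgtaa
IARS1, chr9:92293692-92293721, plus strand: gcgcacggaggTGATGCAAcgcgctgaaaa
MARS1, chr12:57488053-57488082, minus strand: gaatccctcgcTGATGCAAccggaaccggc
NARS1, chr18:57621804-57621833, minus strand: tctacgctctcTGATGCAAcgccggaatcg
TARS1, chr5:33440956-33440985, minus strand: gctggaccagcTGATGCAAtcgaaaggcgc
YARS2, chr12:32756076-32756105, minus strand: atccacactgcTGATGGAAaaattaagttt

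Of the 7 cytosolic matches 6 read TGATGCAA, and 5 began within 15 bases of the start on either side (CARS1, IARS1, MARS1, NARS1 and TARS1). GARS1 has its match 33 bases and AARS1 187 bases before the start. CARS1, GARS1 and TARS1 have 2 starts each, and the match stood in the window of only 1 of them. When the window was limited to the 250 bases before the start, AARS1, GARS1 and IARS1 remained, 3 of 16 (18.8%), against 3.89% of all genes. No CARE match overlapped a GAS or ISRE match. The motifs were chosen with the counts known, and a match of letters is a description, not a site of binding.

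WARS1 (chr14:100333788-100376805, minus strand) had the most counts of any member with IFN-γ. In wild-type libraries it measured 333, 322 and 332 CPM without IFN-γ and 5860, 5530 and 5940 CPM with it. In knockout libraries it measured 392, 394 and 399 CPM without and 7120, 7260 and 7010 CPM with IFN-γ. The 4 groups did not overlap, and the knockout libraries lay above the wild-type libraries in both conditions.

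The IFN-γ response of WARS1 was a log2 fold change of 4.13 (SE 0.04) in wild type, 17.6-fold, with an adjusted p of 9.4e-39 by edgeR's quasi-likelihood test. In the knockout it was 4.17 (SE 0.04), 18-fold, with an adjusted p of 7.0e-39 by edgeR. Of all tested genes, 99.14% had a lower fold change than WARS1 in wild type and 99.01% in the knockout. Because these are bulk samples, more RNA per cell and more cells that express a gene cannot be told apart for any member.

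On a scale that corrects for gene length, TPM (transcripts scaled to a fixed total per library), WARS1 rose from the rank of 760 to 787 among all genes of a wild-type library to rank 17 or 18. In knockout libraries it went from rank 619 to 638 to rank 15 or 16. WARS1 made up 9.9% to 12.9% of the summed TPM of the 19 cytosolic synthetases without IFN-γ and 50.6% to 54.6% with it. All 37 members together took 0.328% to 0.359% of a library's counts without IFN-γ and 0.968% to 1.10% with it. TPM values are shares of a library and carry no scaling between libraries. The length used was that of all annotated exon bases of a gene, which can exceed the length of its transcripts.

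**Figure D1:**
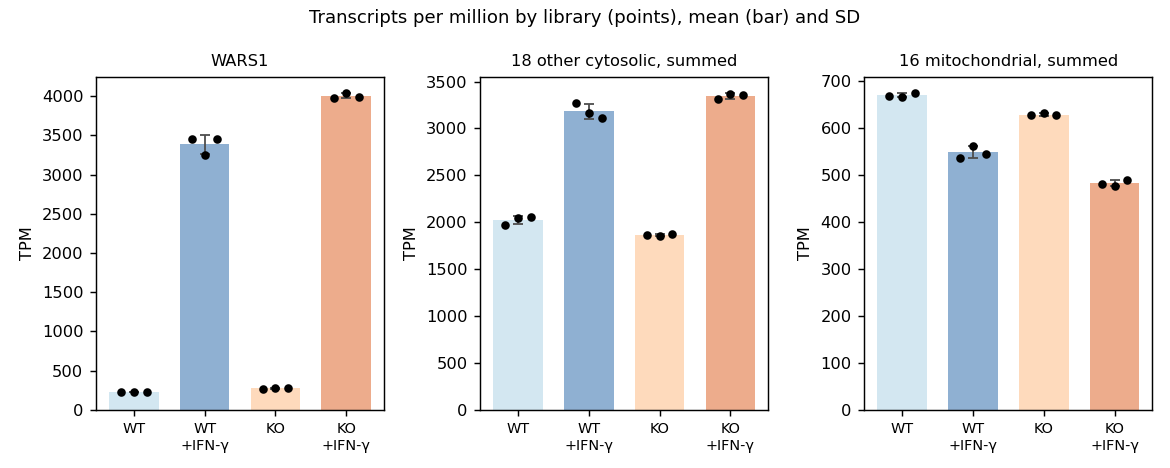
TPM of WARS1, the sum of the 18 other cytosolic synthetases and the sum of the 16 mitochondrial synthetases in each group (points: libraries; bars: mean; error bars: SD, n = 3). WARS1 and the other cytosolic sum were higher in all 6 libraries with IFN-γ, and the mitochondrial sum was lower in all 6 in TPM, which are not scaled between libraries, while in TMM-scaled CPM its wild-type groups overlapped.

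The 18 other cytosolic synthetases summed to 1970, 2040 and 2060 TPM in wild-type libraries without IFN-γ and 3270, 3170 and 3110 TPM with it. In the knockout the sums were 1860, 1850 and 1870 TPM without and 3310, 3370 and 3360 TPM with IFN-γ. The summed TPM of the 16 mitochondrial synthetases was lower with IFN-γ, at 667 to 675 TPM without and 537 to 563 TPM with it in wild type and 627 to 633 against 477 to 489 TPM in the knockout. Most of that difference went with the scaling. In summed CPM, which are scaled between libraries by TMM and not by length, the mitochondrial genes lay at 586 to 600 CPM without and 562 to 593 CPM with IFN-γ in wild type, with overlapping groups, and at 549 to 558 against 521 to 525 CPM in the knockout. The ratio of the 2 sums was 2.92 to 3.06 in the 6 libraries without IFN-γ, 5.63 to 6.09 in wild type with IFN-γ and 6.86 to 7.08 in the knockout with IFN-γ. The knockout and wild-type ranges with IFN-γ did not overlap.

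In levels per length without IFN-γ, QARS1, the glutaminyl enzyme, led the members of both genotypes, at 309 ± 15.5 TPM in wild type and 314 ± 1.65 TPM in the knockout (SD, n = 3 each). WARS1 followed at the third place in wild type and the second in the knockout, at 229 ± 3.25 and 271 ± 4.34 TPM. In wild type NARS1 (248 ± 2.86 TPM), WARS1 and EPRS1 (227 ± 8.63 TPM) stood next to each other, and WARS1 and EPRS1 differed by less than the SD of EPRS1. With IFN-γ WARS1 led at 3380 ± 114 TPM in wild type and 4000 ± 33.1 TPM in the knockout, followed in both by KARS1 (440 ± 5.69 and 477 ± 10.1 TPM) and EPRS1 (391 ± 3.3 and 442 ± 11.8 TPM). QARS1 then stood at rank 8 of the 37 in both genotypes. Such orders between genes depend on the annotated exon bases, 6358 for WARS1 and 5450 for EPRS1, and not on the transcripts present.

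The most abundant mitochondrial enzyme in all 4 groups was IARS2, at 122 ± 2.47 to 174 ± 3.43 TPM by group. SARS2, VARS2 and NARS2 were the lowest members, at means of 1.37 to 4.45 TPM. For SARS2, 57.0% of the exon bases also belong to another gene, chiefly MRPS12, and for VARS2 22.0%, with GTF2H4. The authors' counting left out reads that touched exons of more than 1 gene, so these levels are low estimates.

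IFN-γ raised 15 of the 19 cytosolic synthetases in wild type and lowered the other 4, with a median log2 fold change of 1.05 (2.07-fold). Among all tested genes 28.6% were called higher and 27.9% lower at an adjusted p under 0.05 (56.5% in all), and the median was -0.02. In the knockout 15 of 19 were again higher and 4 lower, with a median of 1.38 (2.60-fold), where 29.2% of all genes were called higher and 31.8% lower (61.1% in all) and the median was -0.05. The libraries with and without IFN-γ did not overlap for any of the 19 in either genotype, as for 60.5% of all tested genes in wild type and 66.2% in the knockout. The 2 responses share no library, and the 15 higher genes and the 4 lower genes were the same in both. When libraries were scaled by their totals alone, which moved the median gene to -0.27 in wild type and -0.35 in the knockout, RARS1 came to -0.01 and -0.02, HARS1 was no longer called, and 13 cytosolic genes remained called higher in each genotype. That scaling also moved the share of higher genes among all called genes from 50.7% to 25.1% in wild type and from 47.9% to 23.4% in the knockout, and upper-quartile scaling moved it to 37.5% and 36.4%.

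**Figure D2:**
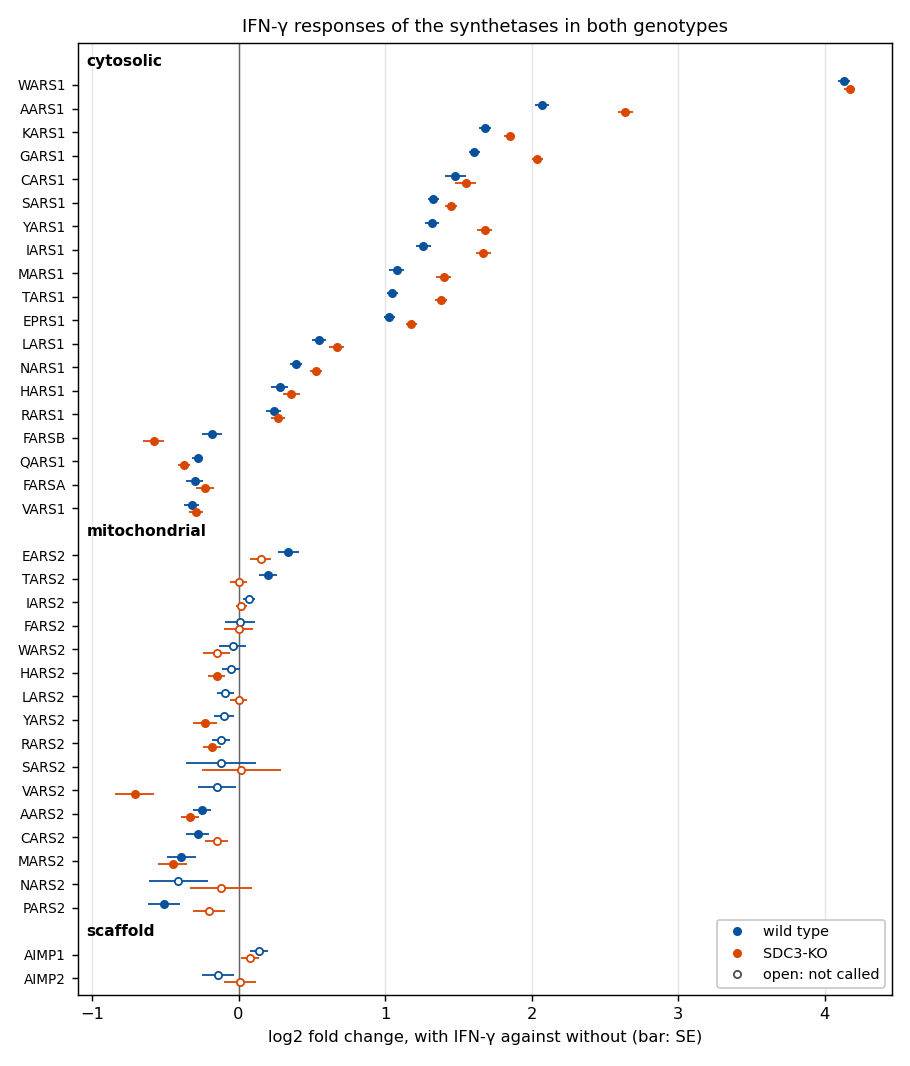
Log2 fold change with IFN-γ against without for each member in wild type and SDC3-KO (points; bars: SE; open points: adjusted p of 0.05 or more). WARS1 lies at 4.13 and 4.17, 14 other cytosolic genes lie above 0 in both genotypes, and the mitochondrial genes lie between -0.71 and 0.34.

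AARS1, the alanyl enzyme, rose most after WARS1. It measured 86.9, 90.5 and 90.8 CPM in wild type without IFN-γ, 417, 359 and 351 CPM with it, 82.5, 80.2 and 79.3 CPM in the knockout without, and 507, 512 and 490 CPM with it. None of these groups overlapped. The log2 fold change was 2.07 (SE 0.05) in wild type and 2.64 (SE 0.05) in the knockout, with adjusted p of 1.6e-26 and 2.0e-29 by edgeR.

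GARS1, the glycyl enzyme of both compartments, measured 117, 114 and 119 CPM in wild type and 110, 102 and 107 CPM in the knockout without IFN-γ. With IFN-γ it measured 364, 351 and 351 CPM in wild type and 426, 447 and 438 CPM in the knockout. Its response was 1.61 (SE 0.04) in wild type and 2.04 (SE 0.04) in the knockout, with adjusted p of 6.7e-26 and 8.6e-29 by edgeR. The genotypes lay apart in both conditions, in opposite order.

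KARS1, the lysyl enzyme of the multisynthetase complex and of mitochondria, measured 146 to 153 CPM in all 6 libraries without IFN-γ, with both genotypes overlapping. With IFN-γ it measured 475, 486 and 481 CPM in wild type and 534, 559 and 536 CPM in the knockout. The response was 1.68 (SE 0.04) and 1.85 (SE 0.04), with adjusted p of 4.2e-27 and 2.1e-28 by edgeR.

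The next cytosolic responses were those of CARS1, SARS1, YARS1, IARS1, MARS1, TARS1 and EPRS1, which join cysteine, serine, tyrosine, isoleucine, methionine, threonine, and glutamate with proline to their transfer RNAs. Their log2 fold changes ran from 1.03 (EPRS1) to 1.48 (CARS1) in wild type and from 1.18 (EPRS1) to 1.68 (YARS1) in the knockout. EPRS1 measured 290, 267 and 281 CPM without IFN-γ and 568, 566 and 582 CPM with it in wild type, and 297, 288 and 310 against 657, 695 and 671 CPM in the knockout. LARS1, NARS1, HARS1 and RARS1 rose less, by 0.24 to 0.55 in wild type and 0.27 to 0.67 in the knockout on the log2 scale.

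The 4 cytosolic genes that fell were FARSA and FARSB, the 2 subunits of the phenylalanyl enzyme, QARS1 and VARS1, the valyl enzyme. VARS1 measured 103, 118 and 117 CPM without IFN-γ and 86.1, 96.8 and 87.6 CPM with it in wild type, and 90.0, 89.5 and 84.4 against 73.4, 69.5 and 73.6 CPM in the knockout. Its log2 fold change was -0.32 (SE 0.05) and -0.29 (SE 0.05), with adjusted p of 5.2e-06 and 3.8e-05 by edgeR. QARS1 changed by -0.28 and -0.37 and FARSA by -0.30 and -0.23.

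FARSB measured 32.6, 32.5 and 33.3 CPM in wild type without IFN-γ and 28.0, 30.4 and 28.1 CPM with it, a log2 fold change of -0.18 (SE 0.07). In the knockout it went from 29.2, 31.0 and 30.3 CPM to 18.3, 22.3 and 19.8 CPM, a change of -0.58 (SE 0.07, adjusted p 2.1e-08 by edgeR). The wild-type change (adjusted p 0.026 by edgeR) lost its call without wild-type library 1 or 3 with IFN-γ (-0.16 each) and without wild-type library 3 without IFN-γ (-0.17). FARSA and FARSB form 1 enzyme in equal parts, and their levels per length with IFN-γ were 80.9 ± 3.97 and 31.9 ± 1.63 TPM in wild type and 87.6 ± 7.96 and 21.3 ± 2.06 TPM in the knockout (SD, n = 3 each).

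The enzymes of the multisynthetase complex in the table (EPRS1, IARS1, KARS1, LARS1, MARS1, QARS1 and RARS1) did not stand apart from the other cytosolic enzymes in these counts. Of these 7, 6 rose and QARS1 fell in both genotypes, with a median log2 fold change of 1.03 in wild type and 1.18 in the knockout. Of the 11 others without WARS1, 8 rose and 3 fell, with medians of 1.05 and 1.38. The shares of all tested genes were 28.6% higher and 27.9% lower in wild type and 29.2% and 31.8% in the knockout. The scaffold genes AIMP1 and AIMP2 were not called in either response, at 0.14 (95% interval 0.02 to 0.27) and -0.14 (-0.36 to 0.08) in wild type and 0.08 and 0.01 in the knockout. AIMP1 was called higher in wild type under 5 of 21 alternatives (0.14 to 0.18), the replicate block and the leaving out of wild-type library 1 or 2 with IFN-γ, wild-type library 1 without or knockout library 3 without. AIMP1 lay between 45.0 and 58.3 CPM and AIMP2 between 8.53 and 11.7 CPM in all 12 libraries, with overlapping groups.

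By enzyme class, leaving out WARS1 and EPRS1, which holds a domain of each class, 6 of 8 class I genes and 7 of 9 class II genes rose in both genotypes. Their medians were 0.82 and 1.05 in wild type and 1.04 and 1.38 in the knockout. Among all tested genes 28.6% rose in wild type and 29.2% in the knockout.

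The 7 cytosolic genes with the CARE letters all rose in both genotypes, with medians of 1.26 in wild type and 1.55 in the knockout. Of the 9 cytosolic genes with a window and no CARE letters, 6 rose and 3 fell, with medians of 0.28 and 0.36. The 2 groups overlapped widely: NARS1, with the letters, changed by 0.39 in wild type, and KARS1, without them, by 1.68. Of all 19 cytosolic genes 15 rose and 4 fell in both genotypes. Among all tested genes 28.6% were called higher and 27.9% lower in wild type, and 29.2% and 31.8% in the knockout. LARS1, VARS1 and YARS1 are not in the promoter table.

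Of the 16 mitochondrial synthetases, 2 were called higher with IFN-γ in wild type, 4 lower and 10 neither, with a median log2 fold change of -0.11. The share of all tested genes called was 28.6% higher and 27.9% lower. The libraries did not overlap for 10 of the 16 in wild type and 6 of the 16 in the knockout, against 60.5% and 66.2% of all tested genes. In the knockout none was called higher, 6 were called lower and 10 neither (29.2% and 31.8% of all genes higher and lower), with a median of -0.15; at an unadjusted p under 0.05 EARS2 was also higher, and DESeq2 called 1 higher. Without knockout library 2 with IFN-γ, 3 of the 6 lower calls were lost, those of HARS2 (-0.08), RARS2 (-0.10) and YARS2 (-0.19). No gene was called in opposite directions in the 2 genotypes: AARS2 and MARS2 were lower in both, 8 were called in 1 genotype and not in the other, and 6 in neither. Only the test of the difference says whether a gene's 2 responses differed. Scaling by library totals alone gave 13 of 16 lower in each genotype, with medians of -0.36 and -0.44, both within 0.1 of the median of all genes under that scaling.

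MARS2, the mitochondrial methionyl enzyme, measured 13.1, 13.6 and 14.5 CPM in wild type without IFN-γ and 10.2, 10.6 and 10.8 CPM with it. In the knockout it measured 10.9, 11.1 and 11.4 against 7.98, 9.37 and 7.11 CPM. The groups did not overlap within a genotype, and the log2 fold changes were -0.39 (SE 0.10) and -0.45 (SE 0.10), with adjusted p of 0.0011 and 3.1e-04 by edgeR.

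PARS2, the mitochondrial prolyl enzyme, had the largest fall in wild type, from 9.87, 8.76 and 9.86 CPM to 6.53, 6.61 and 6.78 CPM (log2 fold change -0.51, SE 0.11, adjusted p 1.9e-04 by edgeR). In the knockout it went from 8.28, 7.08 and 7.10 CPM to 6.40, 6.88 and 6.27 CPM and was not called (-0.20, 95% interval -0.43 to 0.03). The difference between the 2 responses was 0.32 with an interval of -0.01 to 0.64 and was not called (adjusted p 0.20 by edgeR).

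VARS2, the mitochondrial valyl enzyme, measured 9.21, 8.23 and 7.04 CPM in the knockout without IFN-γ and 4.38, 5.21 and 5.35 CPM with it, a log2 fold change of -0.71 (SE 0.13, adjusted p 1.5e-05 by edgeR). In wild type it measured 6.02, 6.41 and 6.04 against 5.37, 5.78 and 5.56 CPM and was not called (-0.15, 95% interval -0.41 to 0.12). VARS1 and VARS2 both lie in the major histocompatibility region of chromosome 6.

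EARS2 and TARS2, which serve glutamate and threonine in mitochondria, were the 2 called higher in wild type. EARS2 went from 24.0, 26.0 and 23.5 CPM to 28.6, 30.9 and 33.9 CPM (log2 fold change 0.34, SE 0.07, adjusted p 1.4e-04 by edgeR), and the call was lost under library totals alone (0.09). TARS2 went from 47.3, 49.0 and 51.2 CPM to 56.0, 62.1 and 51.5 CPM (0.20, SE 0.06, adjusted p 0.0038 by edgeR), and the call was lost without wild-type library 2 with IFN-γ (0.13) and under upper-quartile scaling (0.09), while under library totals its value was -0.05. In the knockout TARS2 stood at 0.00 with an interval of -0.11 to 0.12.

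Cytosolic and mitochondrial genes were paired by name, as AARS1 with AARS2, which gave 13 pairs of the same amino acid. Phenylalanine, glutamate and proline also have genes in both sets, but their names do not match and they are not among the pairs. The cytosolic gene had the higher log2 fold change with IFN-γ in 12 of 13 pairs in wild type and in 13 of 13 in the knockout. The exception among these pairs was valine in wild type, where VARS1 changed by -0.32 and VARS2 by -0.15. Outside the pairs, phenylalanine ran the other way in both genotypes. FARSA and FARSB changed by -0.30 and -0.18 in wild type, against 0.01 for FARS2. In the knockout they changed by -0.23 and -0.58, against 0 for FARS2. EPRS1 (1.03 in wild type and 1.18 in the knockout) lay above EARS2 (0.34 and 0.15) and PARS2 (-0.51 and -0.20). The widest gap was that of tryptophan, with WARS1 at 4.13 and WARS2 at -0.04 in wild type and 4.17 and -0.15 in the knockout. WARS2 lay between 12.1 and 16.3 CPM in all 12 libraries. The next gap was that of alanine, with AARS1 at 2.07 and 2.64 and AARS2 at -0.25 and -0.33.

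**Figure D3:**
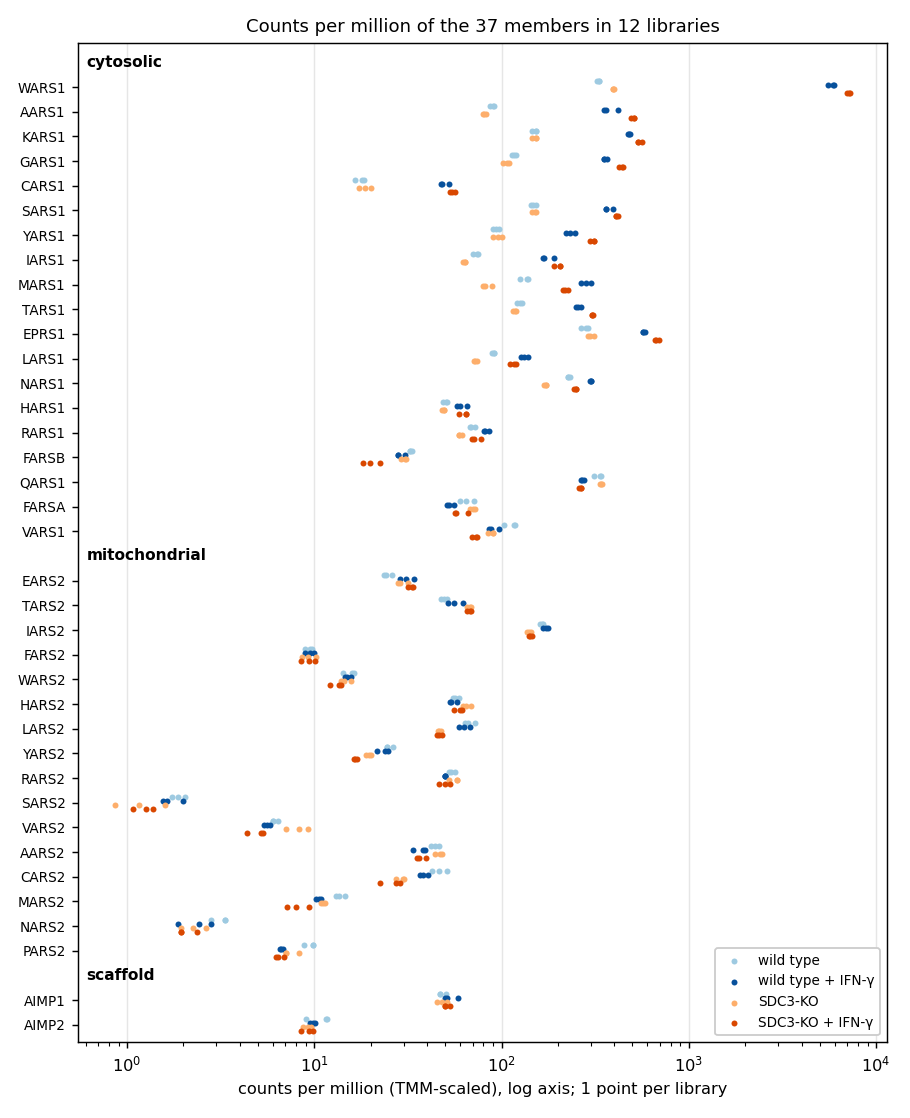
CPM of each member in the 12 libraries (1 point per library, log axis), by group. The libraries with IFN-γ lie to the right for 15 cytosolic genes, WARS1 farthest at 5530 to 7260 CPM, while the mitochondrial and scaffold genes shift little on this axis.

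Counting shares exon bases between some members and their neighbours, and 8 members share over 10% of them, WARS1 with 10.6%, MARS1 with 12.4% and HARS1 with 18.3% among them. With those 8 left out, 12 of 16 cytosolic genes rose and 4 fell in both genotypes, with medians of 1.04 and 1.28. Of 13 mitochondrial genes then left, 2 rose and 4 fell in wild type and 4 fell in the knockout. This subset was chosen after the data were seen. Over all tested genes 28.6% rose and 27.9% fell in wild type, and 29.2% and 31.8% in the knockout.

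The difference between the 2 responses (knockout minus wild type) was tested for each gene by the interaction term of the edgeR fit. Of the 19 cytosolic genes, 7 had a larger log2 response in the knockout and 1 a lower one, while 7.61% of all tested genes were called in the first direction and 7.86% in the second. Library totals alone moved the share of the first direction among all called genes from 49.2% to 35.0%, and 6 of the 7 cytosolic calls were then left, without KARS1. Of the 16 mitochondrial genes, VARS2 alone was called, with a lower value. The median difference was 0.12 for the cytosolic, -0.06 for the mitochondrial and -0.03 for all genes. For 17 of the 19 cytosolic genes the response lay farther from 0 in the knockout, and for 7 of the 16 mitochondrial genes. That count was not made over all tested genes, so it is not read as a trait of the members. Of all tested genes 56.5% were called in the wild-type response and 61.1% in the knockout response.

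AARS1 had the largest difference, 0.57 (SE 0.07, adjusted p 2.0e-07 by edgeR), followed by GARS1 with 0.44, IARS1 with 0.40, YARS1 with 0.36, TARS1 with 0.33, MARS1 with 0.32 and KARS1 with 0.18. FARSB had a difference of -0.40 (SE 0.10, adjusted p 0.0048 by edgeR). WARS1 had a difference of 0.04 with an interval of -0.05 to 0.13 and was not called (adjusted p 0.64 by edgeR).

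The differences of AARS1, GARS1 and IARS1 combined a level below wild type without IFN-γ and a level above it with IFN-γ. IARS1 measured 73.5, 70.5 and 75.0 CPM in wild type and 63.4, 62.3 and 63.5 CPM in the knockout without IFN-γ, and 191, 166 and 168 against 191, 204 and 205 CPM with it. For AARS1 the log2 difference of knockout and wild type was -0.15 (adjusted p 0.015) without and 0.42 (adjusted p 4.7e-09) with IFN-γ by edgeR. The first of these lost its call without library 3 of either genotype (-0.14 each). For GARS1 the differences were -0.14 and 0.30, and the first lost its call without knockout library 2 without IFN-γ (-0.11).

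Knockout and wild type with IFN-γ were compared next. Of the 19 cytosolic genes 10 were higher in the knockout and 6 lower, where 22.9% of all tested genes were higher and 24.3% lower (47.2% in all), with a median log2 difference of 0.15 against -0.01 for all genes. Library totals alone gave 7 higher and 7 lower cytosolic genes, with FARSA, IARS1 and SARS1 no longer called, and moved the share of higher genes among all called genes from 48.6% to 35.6%. Of the 16 mitochondrial genes 1 was higher and 5 lower, with a median of -0.17. Without IFN-γ 2 cytosolic genes were higher and 8 lower (median -0.09), and 4 mitochondrial genes were higher and 8 lower (median -0.15), where 25.4% of all genes were higher and 24.8% lower (50.1% in all). The genotypes did not overlap for 18 of 19 cytosolic and 9 of 16 mitochondrial genes with IFN-γ (54.3% of all tested genes) and for 11 of 19 and 12 of 16 without (56.1%). The 2 genotype comparisons share no library with each other, but each shares its libraries with the responses above.

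WARS1 was higher in the knockout by 0.30 (SE 0.03, 1.23-fold, adjusted p 9.7e-10) with IFN-γ and by 0.26 (SE 0.03, 1.20-fold, adjusted p 2.8e-08) without by edgeR. It was the only cytosolic gene called higher in both conditions besides EPRS1. The call of EPRS1 without IFN-γ (0.09, adjusted p 0.046 by edgeR) was lost under 16 of 21 alternatives, among them DESeq2 (0.08) and the leaving out of knockout library 1 or 3 without IFN-γ (0.10 and 0.07), and its 2 groups overlapped.

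YARS1 was called higher in the knockout only among the libraries with IFN-γ, at 311, 313 and 297 CPM against 247, 231 and 222 CPM in wild type (0.40, SE 0.05, adjusted p 8.5e-09 by edgeR). Without IFN-γ it measured 100, 90.4 and 95.8 against 90.3, 93.4 and 96.5 CPM, with overlapping groups (0.03, 95% interval -0.07 to 0.13). The difference between these comparisons is the 0.36 given above.

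FARSB was called lower in the knockout with IFN-γ (-0.52, SE 0.07, adjusted p 5.1e-07 by edgeR) and not without it (-0.12, 95% interval -0.26 to 0.02). FARSA was called higher with IFN-γ (0.17, adjusted p 0.027 by edgeR), and the call was lost without knockout library 1 (0.09) or wild-type library 1 (0.15) or 3 (0.16) with IFN-γ. The other genes called higher with IFN-γ were SARS1 (0.14), KARS1 (0.18), IARS1 (0.19), EPRS1 (0.24), TARS1 (0.25), GARS1 and AARS1.

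Lower in the knockout in both conditions were 5 cytosolic genes: LARS1, MARS1, NARS1, RARS1 and VARS1. MARS1, the methionyl enzyme, measured 88.6, 81.4 and 79.7 CPM in SDC3-KO against 125, 136 and 139 CPM in wild type without IFN-γ (-0.68, SE 0.05, adjusted p 4.4e-13 by edgeR). With IFN-γ it measured 217, 214 and 226 against 299, 281 and 267 CPM (-0.36, SE 0.05, adjusted p 1.2e-07 by edgeR). The knockout libraries were below all wild-type libraries of the same condition.

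The 20 tested genes nearest to MARS1 on chromosome 12 had a median log2 difference of -0.65 without and -0.46 with IFN-γ, and 16 and 14 of them were called lower and none higher. NARS1, the asparaginyl enzyme on chromosome 18, was lower by 0.42 and 0.27 on the log2 scale, and its 20 neighbours had medians of -0.43 and -0.37, with 14 and 13 lower and none higher. TARS2 on chromosome 1 was higher by 0.45 and 0.25, and its neighbours had medians of 0.63 and 0.54, with 14 and 13 higher and none lower. Of all tested genes 24.8% were lower and 25.4% higher in the knockout without IFN-γ, and 24.3% and 22.9% with it. The part of these neighbourhoods in the members' differences was not tested. For WARS1 the neighbours' medians were 0.06 and 0.16, for AARS1 0.16 and 0.15.

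**Figure D4:**
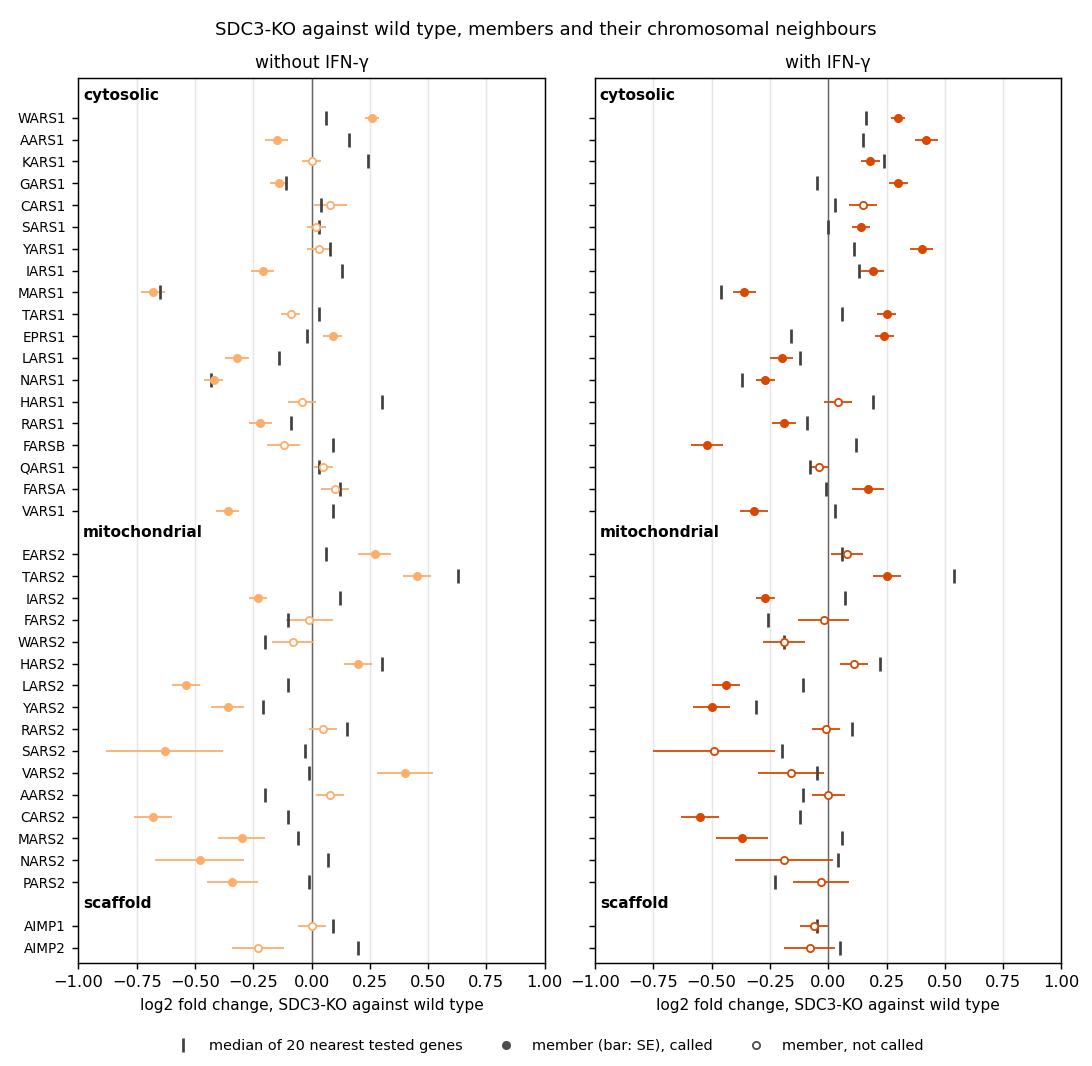
Log2 difference of SDC3-KO and wild type for each member (points; bars: SE; open points: not called) and the median of its 20 nearest tested genes (upright marks), without and with IFN-γ. MARS1, NARS1 and TARS2 lie near marks that are themselves away from 0, while CARS2, LARS2 and VARS1 lie below marks near 0.

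CARS2, the mitochondrial cysteinyl enzyme, was the lowest mitochondrial gene in the knockout relative to wild type. It measured 29.8, 30 and 27.2 CPM in SDC3-KO against 42.4, 46.1 and 51.2 CPM in wild type without IFN-γ (-0.68, SE 0.08, adjusted p 5.7e-09 by edgeR). With IFN-γ it measured 27.2, 22.3 and 28.8 against 38.0, 40.4 and 36.7 CPM (-0.55, SE 0.08, adjusted p 7.8e-07 by edgeR). Its neighbours had medians of -0.10 and -0.12.

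LARS2, the mitochondrial leucyl enzyme, measured 47.7, 46.2 and 45.6 CPM in SDC3-KO against 63.8, 66.1 and 72.4 CPM in wild type without IFN-γ, and 46.4, 48.3 and 45.0 against 59.4, 67.7 and 62.8 CPM with it. The log2 differences were -0.54 and -0.44 (SE 0.06 each), and the neighbours' medians were -0.10 and -0.11. YARS2, the mitochondrial tyrosyl enzyme, measured 20.1, 18.8 and 19.5 against 24.3, 24.4 and 26.3 CPM without and 16.9, 16.3 and 16.4 against 21.7, 24.6 and 23.9 CPM with IFN-γ, differences of -0.36 and -0.50. Its neighbours had medians of -0.21 and -0.31. IARS2 and MARS2 were the other mitochondrial genes lower in both conditions, IARS2 by 0.23 and 0.27 and MARS2 by 0.30 and 0.37 on the log2 scale. The call of MARS2 without IFN-γ was lost without wild-type library 3 (-0.26). PARS2 (-0.34), NARS2 (-0.48) and SARS2 (-0.63) were called lower without IFN-γ. The calls of NARS2 (adjusted p 0.039) and SARS2 (adjusted p 0.035 by edgeR), at 3.35 CPM or less in every library, were lost under 5 of 20 alternatives each, as without knockout library 3 (-0.47 and -0.60).

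TARS2 was the only mitochondrial gene called higher in both conditions, at 68.3, 65.0 and 67.8 CPM in SDC3-KO against 47.3, 49.0 and 51.2 CPM in wild type without IFN-γ and 65.7, 67.6 and 68.4 against 56.0, 62.1 and 51.5 CPM with it. Without IFN-γ VARS2 (0.40, SE 0.12, adjusted p 0.0067 by edgeR), EARS2 (0.27) and HARS2 (0.20) were also higher. VARS2 lost that call without knockout library 1 (0.31). HARS2 shares 21.8% of its exon bases with other genes, and its neighbours had a median of 0.30.

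Other genes of the pathways around the members were taken from lists chosen by function. The ATF4 list held 28 genes, ATF4 itself and targets of it outside the synthetases. With IFN-γ 27 of them were higher in wild type and 1 lower (median 1.81), and 28 of 28 in the knockout were higher (median 2.06). Among all tested genes 28.6% were higher in wild type and 29.2% in the knockout. ATF4 itself rose by 0.87 in wild type and 1.49 in the knockout, from 302 to 550 and from 224 to 627 CPM on average. ASNS, which makes asparagine, rose by 4.84 and 5.27, and PSAT1 of serine synthesis by 4.58 and 5.35. XPOT, which exports transfer RNA from the nucleus, rose by 1.13 and 1.24.

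With IFN-γ 18 of these 28 genes were higher in the knockout and 7 lower (median 0.27), where 22.9% and 24.3% of all tested genes were. Without IFN-γ 7 were higher and 14 lower (median -0.14), where 25.4% and 24.8% of all tested genes were. The difference between the responses was called above 0 for 16 of 28 and below for 2, ATF4 itself among the 16 with 0.62 (SE 0.05, adjusted p 1.3e-10 by edgeR). The shares over all tested genes were 7.61% above and 7.86% below.

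The other steps of aminoacylation changed less. Of 11 aminoacylation partners 3 were higher and 1 lower in wild type and 3 higher and 2 lower in the knockout, among them QRSL1, a subunit of the mitochondrial glutamyl-tRNA amidotransferase (0.59 and 0.67), and MTFMT, which formylates the mitochondrial initiator methionyl-tRNA (-0.67 and -0.87). Of 9 elongation factors 8 were tested, of which 2 were higher and 2 lower in wild type and 3 and 3 in the knockout. Among all tested genes 28.6% were higher and 27.9% lower in wild type, and 29.2% and 31.8% in the knockout. The counts of the 2 lists were not tested against these shares. EEF1A1, which carries charged transfer RNA to the ribosome, changed by 0.16 and 0.27. Of the GAIT partners of EPRS1, SYNCRIP changed by 0.20 and 0.33, RPL13A by -0.26 and -0.27, and GAPDH was called in neither response.

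Of 8 genes of tryptophan breakdown 7 were tested, and 4 of them were higher with IFN-γ in both genotypes, beside the rise of WARS1. TDO2, which opens the tryptophan ring, rose by 0.94 in wild type and 1.43 in the knockout, from 201 to 384 and from 212 to 571 CPM on average, and KYNU rose by 1.17 and 1.05. The median over the 7 tested genes was 0.94 in wild type and 1.05 in the knockout. TDO2 in wild type and KYNU in the knockout were thus the smallest of the 4 rises. IDO1 averaged 4.45 CPM in wild type and 8.18 CPM in the knockout with IFN-γ. QPRT, which turns quinolinate into nicotinic acid mononucleotide, fell by 0.88 and 1.47 on the log2 scale, and AFMID (-0.29) and HAAO (-0.26) were called lower in the knockout and not in wild type. Of 12 genes of IFN-γ signalling 10 were higher and 1 lower in both genotypes. For this list and that of tryptophan breakdown, the shares over all tested genes were 28.6% higher and 27.9% lower in wild type. In the knockout they were 29.2% and 31.8%.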

How the data were processed

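Poly(A) RNA of 12 libraries was sequenced with a stranded kit, per the labels' protocols. The authors deposited whole-number read counts per gene on hg38. Per the file headers, the counts were made with featureCounts 2.0.3 over exons by gene, from primary alignments of paired reads without chimeric pairs, with no strand option and with each mate counted, so antisense reads cannot be told apart and 70.4% to 73.3% of counts of 1 to 19 were even. The submitters' processing notes name fastp 0.23.2, STAR 2.7.10b, BWA, Picard 2.27.5, MultiQC 1.13, FastQC and Subread. The aligner behind the counted alignments and the annotation release were not given in the sources used here. Gene bounds of 34 of the 37 members matched GENCODE 29.

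From the counts, CPM (TMM-scaled) and TPM were computed. Genes kept by filterByExpr (17119) were fitted with edgeR 4.0.16 (R 4.3.3) in 1 quasi-likelihood model of the 4 groups with 8 residual degrees of freedom, two-sided, with Benjamini-Hochberg adjustment over all tested genes, called at an adjusted p under 0.05. The fit was tested on simulated counts. The alternatives were DESeq2 1.42.0, limma-voom (limma 3.58.1), other scalings and filters, the compared libraries alone, the replicate number as a block, and each library left out. Named in full were WARS1 and, in each comparison, the 3 largest rises and falls among called members with at least 5 CPM, with the 20 nearest tested genes of each member. Motifs were searched in RefSeq GRCh38.p14 windows of 300 bases. The members, lists and motifs were chosen with earlier results of these data known, and no gene set was tested. Between libraries of a group chi-square per degree of freedom was 2.9 to 7.58, above the value of 2 that counting both mates can give at most, so no 2 were treated as 1 library and all 12 were kept.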

Additional observations from a re-analysis of the deposited data

Results flagged for a closer look

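For 9 members the IFN-γ response differed between the genotypes by a test of the difference itself, the interaction term of the edgeR fit with Benjamini-Hochberg adjustment over all tested genes, of which 15.5% were called. The values are log2 responses, knockout minus wild type. Among cytosolic genes AARS1 had 0.57, GARS1 0.44, IARS1 0.40, YARS1 0.36, TARS1 0.33, MARS1 0.32, KARS1 0.18 and FARSB -0.40. Among mitochondrial genes VARS2 had -0.56. For KARS1 the call was lost without knockout library 2 (0.16) or wild-type library 3 (0.17) without IFN-γ and under library totals alone (0.13). For VARS2, at 9.21 CPM or less in every library and with 22.0% of its exon bases shared, it was lost with DESeq2 (-0.54), without a low-count filter (-0.55) and without any 1 of 7 libraries (-0.47 to -0.56). These were knockout libraries 1 and 2 in both conditions, wild-type library 2 with IFN-γ, and wild-type libraries 1 and 3 without IFN-γ.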

How the results depend on the processing

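Of the called members, 20 of 25 in each IFN-γ response, 19 of 22 and 15 of 22 in the genotype comparisons with and without IFN-γ, and 7 of 9 in the difference stayed called in the same direction under every alternative run. Under library totals alone the wild-type response changed sign for RARS1 (-0.01), FARS2 (-0.24), IARS2 (-0.18), TARS2 (-0.05) and AIMP1 (-0.11), and the knockout response for RARS1 (-0.02), IARS2 (-0.27), LARS2 (-0.29), TARS2 (-0.29), AIMP1 (-0.22), AIMP2 (-0.28), EARS2 (-0.14) and SARS2 (-0.27). Under library totals the median gene itself lay at -0.267 in wild type and -0.35 in the knockout, against -0.131 and -0.171 for upper-quartile scaling. In wild type library totals called 2767 genes higher and 8260 lower, none of the 16 mitochondrial genes higher (0) and 13 lower, with medians of 0.80 (cytosolic) and -0.36 (mitochondrial); in the knockout 2787 and 9141 genes and 13 mitochondrial genes lower, with medians of 1.08 and -0.44. Upper-quartile scaling gave medians of 0.93 and -0.22 with 1 mitochondrial gene higher and 9 lower in wild type, and 1.26 and -0.27 in the knockout. In the knockout response 1 mitochondrial gene was higher with DESeq2, RLE size factors or the compared libraries alone. With IFN-γ the genotype medians were 0.07 and -0.26 under library totals. Without IFN-γ 1 cytosolic gene was higher with DESeq2, RLE, upper-quartile scaling, library totals, no filter or the compared libraries alone, and the mitochondrial median was -0.04 with at least 5 CPM in 3 libraries. In the difference of responses the mitochondrial genes lower numbered 0 with DESeq2 or no filter and 2 under library totals. The cytosolic knockout median was 1.28 without members sharing over 10% of their exon bases, an alternative added after seeing the data.

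With each library left out in turn, the mitochondrial genes called higher ranged from 1 to 2 in the wild-type response, 0 to 1 in the knockout response and 1 to 2 in the genotype comparison with IFN-γ, those lower from 3 to 7 in the knockout response and 0 to 2 in the difference, and the cytosolic genes higher without IFN-γ from 1 to 2. The lowest count of 3 was without knockout library 2 with IFN-γ.

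Libraries of the same number in different groups did not vary together (correlation of deviations -0.03 to 0.05 over 18 pairs), so the numbers do not pair them. With the replicate block 15 cytosolic genes were higher and 4 lower in each response, WARS1 stood at 4.13 and 4.17, the count of cytosolic genes higher without IFN-γ moved to 1 with the loss of EPRS1, and AIMP1 was called higher in the wild-type response (0.14, adjusted p 0.041 by edgeR). The block changed no other call of a member.

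Depth limited SARS2 and NARS2, at 3.35 CPM or less in every library, whose standard errors reached 0.36 and 0.29. The CARE count over cytosolic promoters fell to 3 in the 250 bases before the start.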
